A study of Mus musculus with 4 samples.

Results

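DNA replication depends on a set of proteins that mark and open the origins, unwind the double helix, copy both strands and keep the cell supplied with deoxynucleotides. The genes described here encode 36 of them, chosen by name from textbook function, with earlier results of these data known. They were 36 of the 19057 genes that had a probe with a single gene symbol on the array, and they had 75 of the 34885 such probes. Each gene was read from its brightest probe, judged by the mean of the 4 arrays. By that probe, 35 of the 36 genes were above background on all 4 arrays. The exception was Pola1, the catalytic subunit of DNA polymerase alpha, whose only probe was not above background on any array and which has no value here.

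In a dividing cell, the origin recognition complex, Cdc6 and Cdt1 load the MCM ring onto DNA during G1. Cdc45 and the GINS complex then turn that ring into an active helicase, polymerase alpha and primase start each strand, and polymerases delta and epsilon extend it on the Pcna clamp. Transcription of many of these genes rises at the start of S phase under E2F factors, so their messages are low in resting cells such as most tissue macrophages and high in dividing precursors and activated lymphocytes.

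The RNA came from cells of the spleen of BXD2 mice, a recombinant inbred strain that develops lupus-like disease, sorted as marginal zone macrophages by low CD11b, surface SIGN-R1 and absence of I-Ab and of the macrophage antigen encoded by Adgre1. BXD2 mice given PBS gave 2 arrays (the controls), BXD2-Ifnar-/- mice given PBS, which lack the type I interferon receptor, gave 1, and BXD2 mice given 25 µg of sLTβR-Fc intravenously, a soluble decoy of the lymphotoxin β receptor, gave 1. All mice were 2.5 months old and were killed 10 hours after the injection. Each array held pooled cells of 2 mice, the BXD2 background was shared by every group, and an array for a control Fc protein was not among the samples analysed here. The comparisons ask what loss of interferon signalling, and blockade of lymphotoxin signalling, did to these cells.

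Between 23147 and 23981 of 45281 probes were above background per array, and 14368 genes were tested. The 2 controls correlated at r = 0.992 over those genes, and 31 genes stood at least 2-fold apart between them. The label of the sort was only partly met by its markers. The SIGN-R1 gene Cd209b read 127 and 130.1 in the controls, 152 in Ifnar-/- cells and 145 after sLTβR-Fc. Of 14 marginal zone macrophage genes listed, 7 were above background on all 4 arrays, among them Marco at 252 and 162, Cd209d at 216 and 306 and Axl at 1016 and 436 in the controls. Siglec1, Cd5l and Msr1 of that list were not above background on any array. H2-Ab1, a chain of the I-A molecule that the gate excluded, read 8662 and 8305 in the controls, 16289 in Ifnar-/- cells and 9488 after sLTβR-Fc. Adgre1, whose product the gate also excluded, read 629, 306, 1017 and 631 in the same order. With these bulk samples, fewer cells of a dividing type and less message per cell cannot be told apart. The Ifnar-/- and sLTβR-Fc arrays have no replicate, and the control arrays are not stated to come from different mice, so every SE and p below rests on the spread between that pair, which may be technical.

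Replication gene messages were low on the array of BXD2-Ifnar-/- mice. Of the 35 measured, 33 lay below both controls, where 35.2% of all genes tested did, and Pold1 alone lay above both, where 42.8% did. Against the mean of the controls, the median log2 difference was -0.42, a level 1.34-fold lower, against 0.015 over all genes tested. In limma with Benjamini-Hochberg adjustment over all genes, 14 passed as lower, where 6.66% of all genes did, and 0 as higher, where 6.44% did (1 at an unadjusted p under 0.05). At least 2-fold above each control lay 0 members, where 0.578% of genes did. At least 2-fold below each control lay 5 of them (Rrm2, Mcm10, Rrm1, Cdc6 and Fen1), where 0.954% of genes did. In the same fit with dim values raised to a floor, 0 genes of the whole array passed and the prior had 0.957 degrees of freedom, against 65.6 without the floor. Between 31 and 34 members lay below both controls in every setting tried.

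On the sLTβR-Fc array the replication genes stayed near the controls after quantile normalisation. Of the 35, 10 lay below both controls, 17 above both and 8 between them, where 35.8% of all genes lay below and 43.9% above. The median log2 difference was 0.055, against 0.019 over all genes. limma passed 2 as lower, Cdc6 and Mcm4, where 6.33% of all genes passed, and 0 as higher, where 8.14% did (4 at an unadjusted p under 0.05). At least 2-fold from each control lay 0 members, as 0.473% of all genes did below and 1.03% above. This comparison moves with the scaling. In the values as deposited the list's median was -0.55 with 15 members passing as lower, and it was -0.47 with 7 and -0.10 with 5 under the median scalings. Of all genes tested, 32.4%, 18.9% and 10.4% passed as lower in those settings.

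The plot of intensities by gene shows that the Ifnar-/- array held the lowest value of the 4 for 33 genes, all but Pola2 and Pold1, whereas the sLTβR-Fc array fell among the controls or beyond them on either side.

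**Figure D1:**
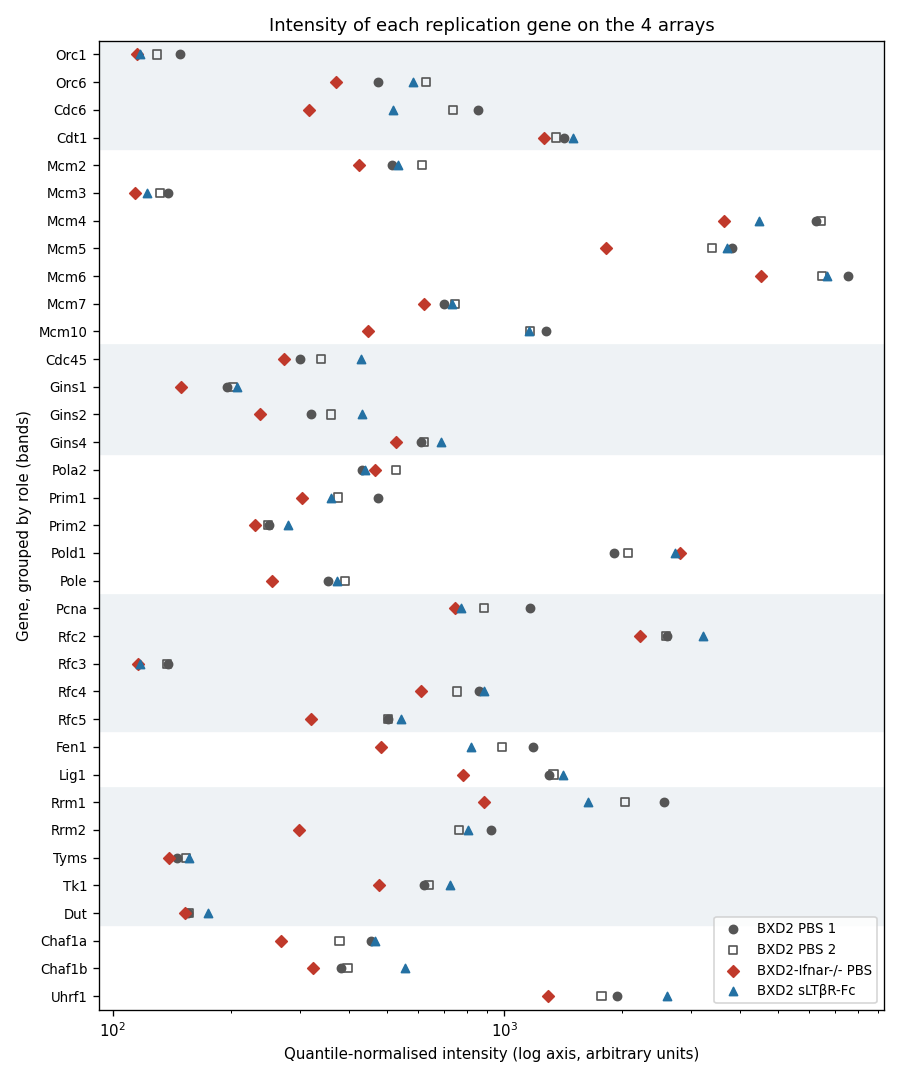
Quantile-normalised intensity (log axis) of the 35 measured replication genes on the 4 arrays, each from its brightest probe, with bands for the roles. Within a row, the Ifnar-/- array (diamond) lies below both controls (circle and square) in 33 genes and the sLTβR-Fc array (triangle) in 10; levels of different probes are not comparable between rows.

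The regulatory sequence of the members was read next, to see what they share besides function. RefSeq promoter windows of build GRCm38.p6, from 250 bases before to 50 after a transcription start, were matched by symbol for 29 members, which had 34 windows. Gins1, Gins2, Gins4, Mcm4, Pole, Prim2 and Rfc2 were not matched. The E2F words TTTCCCGC, TTTCGCGC, TTTGCCGC and TTTGGCGC, searched on both strands, occurred in 12 of the 34 windows (35.3%), against 2.26% of all 32851 windows and 3.43% of those of the genes tested. There were 18 such matches, 0 of them TTTGCCGC, and in Mcm5 and Mcm6 a match on each strand overlapped. The interferon-response pattern, TTTC followed after any 2 bases by another TTTC, was in 0 of the 34, against 3.44% of all windows. CCAAT was in 55.9% against 37.4%, the GC box GGGCGG in 73.5% against 35.7%, and TATAAA in 5.88% against 13.6%. Among windows of the genes tested, the shares were 37.6% for CCAAT, 55% for the GC box, 9.55% for TATAAA and 3.2% for the interferon-response pattern. A match is a description of letters and not of binding, and other spellings of an E2F site were not searched.

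The following windows are given 5′ to 3′ on the strand of the gene, with E2F words in capitals. Cdc6, Mcm5 and Mcm6 hold such words and read low on the Ifnar-/- array, Rrm2 holds none and had the lowest difference of all members, and Pold1 holds one and was the member that read high.
Cdc6, chr11:98907901-98908200, plus strand: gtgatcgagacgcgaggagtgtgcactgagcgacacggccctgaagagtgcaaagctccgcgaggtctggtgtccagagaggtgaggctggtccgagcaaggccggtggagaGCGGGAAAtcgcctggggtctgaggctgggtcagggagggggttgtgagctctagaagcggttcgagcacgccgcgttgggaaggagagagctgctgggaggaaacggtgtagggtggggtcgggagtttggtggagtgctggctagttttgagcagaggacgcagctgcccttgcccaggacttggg
Mcm5, chr8:75109259-75109558, plus strand: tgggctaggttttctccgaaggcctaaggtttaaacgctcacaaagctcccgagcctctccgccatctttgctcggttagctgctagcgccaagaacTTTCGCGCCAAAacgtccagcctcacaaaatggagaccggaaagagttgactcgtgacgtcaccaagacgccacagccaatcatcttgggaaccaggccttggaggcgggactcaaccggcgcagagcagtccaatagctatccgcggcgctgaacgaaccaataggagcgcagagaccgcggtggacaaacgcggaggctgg
Mcm6, chr1:128359656-128359955, minus strand: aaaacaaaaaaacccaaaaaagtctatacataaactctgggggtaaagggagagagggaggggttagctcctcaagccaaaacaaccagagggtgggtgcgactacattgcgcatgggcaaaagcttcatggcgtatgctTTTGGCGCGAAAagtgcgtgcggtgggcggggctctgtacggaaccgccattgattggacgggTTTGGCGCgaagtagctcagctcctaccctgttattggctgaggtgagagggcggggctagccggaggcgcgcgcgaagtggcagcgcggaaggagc
Rrm2, chr12:24708004-24708303, plus strand: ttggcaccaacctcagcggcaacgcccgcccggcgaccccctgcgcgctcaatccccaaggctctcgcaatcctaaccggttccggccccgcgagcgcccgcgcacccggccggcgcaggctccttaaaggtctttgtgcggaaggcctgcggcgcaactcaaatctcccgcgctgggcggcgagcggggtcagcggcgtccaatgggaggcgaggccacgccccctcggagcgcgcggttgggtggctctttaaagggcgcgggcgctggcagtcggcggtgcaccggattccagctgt
Pold1, chr7:44548766-44549065, minus strand: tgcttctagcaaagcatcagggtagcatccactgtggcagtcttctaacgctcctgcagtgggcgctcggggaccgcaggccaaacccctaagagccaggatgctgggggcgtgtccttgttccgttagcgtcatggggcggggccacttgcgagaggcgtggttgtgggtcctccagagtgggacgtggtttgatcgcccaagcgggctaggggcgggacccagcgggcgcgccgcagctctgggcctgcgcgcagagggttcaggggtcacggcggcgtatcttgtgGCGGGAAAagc

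The 11 measured members with an E2F word in a window had a median log2 difference of -0.26 on the Ifnar-/- array, 4 of them passing limma. The 17 with a window and no such word had -0.45, 6 of them passing, where 6.66% of all genes passed as lower. Orc1, Mcm3 and Rfc3 of the first set and Tyms and Dut of the second were dim, so their differences are understated. The gap between the medians was not tested.

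**Figure D2:**
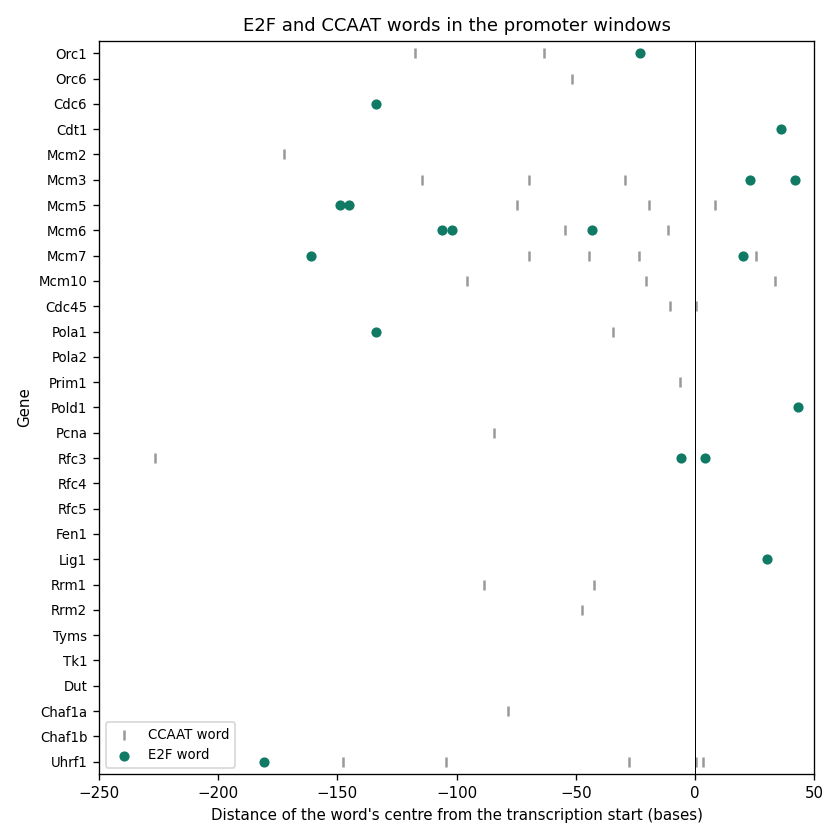
Distance in bases from the transcription start to the centre of each E2F word (circle) and CCAAT word (bar) in the promoter windows of 29 replication genes; a gene with several windows has each match placed relative to its own start. The E2F words searched stand in 12 genes and are absent from the windows of the others, Rrm1, Rrm2, Mcm10 and Fen1 among them. Other spellings of an E2F site were not searched.

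Origin licensing came first in the order of replication. Cdc6, the loader that the cell supplies anew in each cycle, read 855 and 739 in the controls, 318 in Ifnar-/- cells and 519 after sLTβR-Fc. Both other arrays lay below both controls, and the Ifnar-/- array was the lower of them. The log2 difference was -1.32 ± 0.20 (SE) on the Ifnar-/- array (limma adjusted p 8.21e-07) and -0.61 ± 0.20 after sLTβR-Fc (adjusted p 0.0287). Cdt1, its partner in loading, read 1415 and 1354 in the controls, 1264 in Ifnar-/- cells and 1500 after sLTβR-Fc, a difference of -0.13 ± 0.20 and 0.12 ± 0.20 that passed in neither. Orc1 and Orc6, subunits of the origin recognition complex, had log2 differences of -0.26 ± 0.10 and -0.56 ± 0.20 on the Ifnar-/- array, with limma adjusted p of 0.0723 and 0.0543. The Orc6 values in the controls, 475 and 630, were the most unequal of any member. A further Cdc6 probe was above background in the controls alone, at 133 and 128.

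The MCM ring genes, Mcm2 to Mcm7, and Mcm10 lay below both controls on the Ifnar-/- array in all 7 cases, and 4 passed as lower. Mcm10, which is no part of the ring but helps to fire it, read 1275 and 1162 in the controls, 447 in Ifnar-/- cells and 1153 after sLTβR-Fc. Only the Ifnar-/- array stood away from the others (log2 -1.44 ± 0.21, limma adjusted p 1.60e-07), and the sLTβR-Fc array lay just under the lower control. Mcm5 read 3811 and 3388 in the controls, 1821 in Ifnar-/- cells and 3698 after sLTβR-Fc, which lay between the controls. Its difference on the Ifnar-/- array was -0.98 ± 0.19 (limma adjusted p 5.71e-05).

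Mcm4 was the ring subunit that passed as lower on both arrays. It read 6245 and 6440 in the controls, 3644 in Ifnar-/- cells and 4461 after sLTβR-Fc, where the log2 differences were -0.80 ± 0.17 (limma adjusted p 0.000252) and -0.51 ± 0.17 (adjusted p 0.0278). The values of the lone arrays themselves differed by a log2 of -0.29, with an adjusted p of 0.387. Mcm6 read 7541 and 6481 in the controls, 4511 in Ifnar-/- cells and 6662 after sLTβR-Fc. By that brightest probe only the Ifnar-/- array left the range of the controls (log2 -0.63 ± 0.16, limma adjusted p 0.00310). Further Mcm6 probes lay below both controls on the sLTβR-Fc array too, at 612 against 707 and 892, and at 1496 against 1561 and 2143. Mcm2, Mcm3 and Mcm7, the remaining subunits, lay at -0.41, -0.25 and -0.22 on the Ifnar-/- array and did not pass. Mcm3 read between 114 and 139 on the 4 arrays, close to background, so its difference is understated; like Mcm4 it lay below both controls on both arrays.

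The activators of the helicase lay below both controls on the Ifnar-/- array in all 4 genes and above both on the sLTβR-Fc array in all 4 after quantile normalisation; on the sLTβR-Fc array the direction of the whole list turned under the other scalings given above. Gins2 read 321 and 360 in the controls, 237 in Ifnar-/- cells and 434 after sLTβR-Fc. Its log2 difference was -0.52 ± 0.18 on the Ifnar-/- array, just inside the threshold (limma adjusted p 0.0495), and 0.35 ± 0.18 after sLTβR-Fc (adjusted p 0.207). Gins1 passed on the Ifnar-/- array as well, at 149 against 196 and 203 (log2 -0.42 ± 0.15, limma adjusted p 0.0434), and read 207 on the sLTβR-Fc array. Among calls of the Ifnar-/- array against the controls these were the most easily lost, Gins1 passing in 4 and Gins2 in 3 of 9 other settings. Cdc45 and Gins4 lay at -0.23 and -0.23 on the Ifnar-/- array and at 0.43 and 0.16 after sLTβR-Fc, with none of these values passing.

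The polymerases and primase had the median nearest 0 of the roles on the Ifnar-/- array, at -0.12. Pold1, the catalytic subunit of polymerase delta, read 1909 and 2071 in the controls, 2803 in Ifnar-/- cells and 2727 after sLTβR-Fc. Both arrays lay above both controls, at log2 0.50 ± 0.19 and 0.46 ± 0.19, with limma adjusted p of 0.0800 and 0.105. Pole, the catalytic subunit of polymerase epsilon, went the other way on the Ifnar-/- array, at 255 against 355 and 391 (log2 -0.55 ± 0.18, adjusted p 0.0368), and read 373 on the sLTβR-Fc array. Pole passed in 5 of 9 other settings. Pola2, the regulatory subunit of polymerase alpha, read 433 and 529 in the controls, and its 466 in Ifnar-/- cells and 441 after sLTβR-Fc both fell between them. Prim1 and Prim2, the subunits of primase, lay at -0.48 and -0.12 on the Ifnar-/- array and did not pass.

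The clamp and its loader were below both controls on the Ifnar-/- array in all 5 genes, with Rfc5 passing. Rfc5, a small subunit of the loader, read 503 and 504 in the controls, 320 in Ifnar-/- cells and 545 after sLTβR-Fc (log2 -0.66 ± 0.20 and 0.11 ± 0.20, limma adjusted p 0.0151 and 0.754). Pcna, the sliding clamp itself, read 1164 and 886 in the controls, 746 in Ifnar-/- cells and 776 after sLTβR-Fc. Pcna lay low on both arrays, at -0.45 ± 0.21 and -0.39 ± 0.21, and passed on neither, with controls that were themselves 0.39 apart. Rfc2 had the highest difference of this role on both arrays, at -0.23 on the Ifnar-/- and 0.30 after sLTβR-Fc, and Rfc3 and Rfc4 lay at -0.25 and -0.40 on the Ifnar-/- array.

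Both genes of Okazaki fragment joining passed as lower on the Ifnar-/- array. Fen1, the nuclease that trims the flap left by primer removal, read 1185 and 987 in the controls, 483 in Ifnar-/- cells and 821 after sLTβR-Fc. Its log2 difference was -1.16 ± 0.21 on the Ifnar-/- array (limma adjusted p 2.17e-05) and -0.40 ± 0.21 after sLTβR-Fc (adjusted p 0.205). Lig1, the ligase that seals the nick, read 1300.1 and 1333 in the controls, 784 in Ifnar-/- cells and 1415 after sLTβR-Fc. It thus left the controls downward on the first (log2 -0.75 ± 0.21, adjusted p 0.00756) and lay slightly above them on the other (0.10 ± 0.21).

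Nucleotide supply held both the lowest member and some that hardly moved. Rrm2, the regulated small subunit of ribonucleotide reductase, read 924 and 766 in the controls, 299 in Ifnar-/- cells and 805 after sLTβR-Fc. It was 2.81-fold lower on the Ifnar-/- array than the control mean (log2 -1.49 ± 0.21, limma adjusted p 5.83e-08) and lay between the controls on the sLTβR-Fc array. Rrm1, the large subunit of the same enzyme, read 2557 and 2032 in the controls, 888 in Ifnar-/- cells and 1637 after sLTβR-Fc. It was below both controls on both arrays, at log2 -1.36 ± 0.20 (adjusted p 5.29e-07) and -0.48 ± 0.20 (adjusted p 0.108). Tk1, which salvages thymidine, lay at -0.41 ± 0.20 on the Ifnar-/- array (adjusted p 0.201). Dut, which removes dUTP, read 156 and 156 in the controls, 153 in Ifnar-/- cells and 175 after sLTβR-Fc, and Tyms, thymidylate synthase, read between 139 and 156 on the 4 arrays. Both of these probes were dim, and their values say little about the size of a change.

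Chromatin assembly genes were below both controls on the Ifnar-/- array and above both on the sLTβR-Fc array, in all 3 genes, the latter after quantile normalisation. Chaf1a, the large subunit of the histone chaperone CAF-1, read 457 and 379 in the controls, 269 in Ifnar-/- cells and 467 after sLTβR-Fc (log2 -0.63 ± 0.19 and 0.17 ± 0.19, limma adjusted p 0.0185 and 0.620). Chaf1b, its partner, read 383 and 397 in the controls, 324 in Ifnar-/- cells and 559 after sLTβR-Fc, where its difference of 0.52 ± 0.19 had the lowest p of the positive differences (adjusted p 0.0566). Uhrf1, which brings the maintenance DNA methyltransferase to newly copied DNA, read 1935 and 1769 in the controls, 1294 in Ifnar-/- cells and 2604 after sLTβR-Fc. Its differences of -0.52 ± 0.20 and 0.49 ± 0.20 did not pass (adjusted p 0.0771 and 0.0872), although the arrays lay on opposite sides of both controls.

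**Figure D3:**
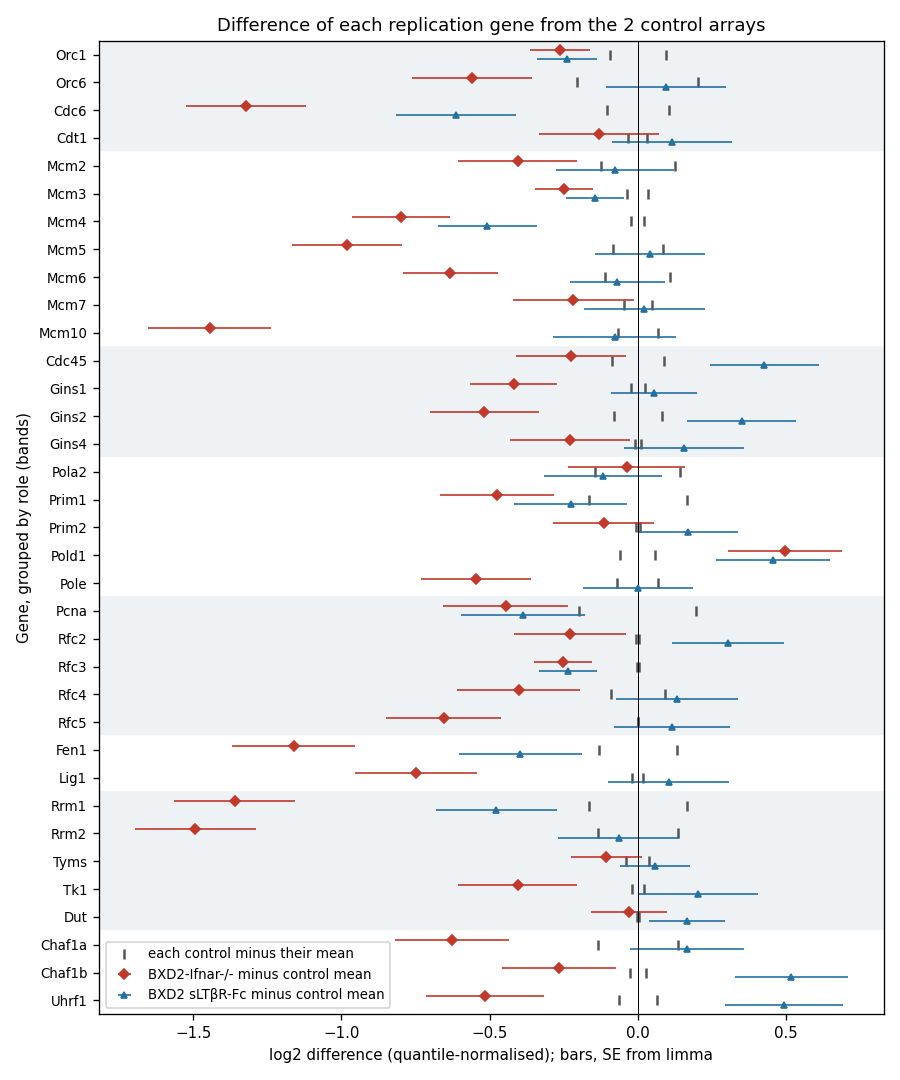
log2 difference of the Ifnar-/- array (diamond) and the sLTβR-Fc array (triangle) from the control mean for the 35 measured replication genes, with the SE of the limma fit as bars and each control's own distance from that mean as ticks. Diamonds reach -1.49 for Rrm2 and lie left of both ticks in 33 genes, while triangles spread from -0.61 for Cdc6 to 0.52 for Chaf1b.

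The lone arrays were then set against each other, with the control pair still giving the variance of the test. Of the 35 members, 33 were lower on the Ifnar-/- than on the sLTβR-Fc array, where 51.6% of all genes tested were, and the median log2 difference was -0.53 against -0.0079 over all genes. limma passed 14 as lower on the Ifnar-/- array, where 5.68% of all genes passed, and 0 as higher, where 4.21% did (0 at an unadjusted p under 0.05). The largest were Rrm2, 2.69-fold higher on the sLTβR-Fc array (log2 -1.43, SE 0.24, adjusted p 5.99e-06), and Mcm10, 2.58-fold higher (log2 -1.37, adjusted p 1.71e-05). Mcm5 and Uhrf1 followed at -1.02 and -1.01, which made 4 members at least 2-fold lower on the Ifnar-/- array, where 1.59% of genes were. Cdc45, Gins2, Chaf1a and Chaf1b passed here as well, at -0.65, -0.87, -0.79 and -0.78, and in 1, 6, 4 and 5 of 9 other settings. This call depends on the scaling: 1 member passed in the values as deposited (Rrm2), 0 with medians over all probes equalised and 7 with medians over probes above background equalised, with list medians of -0.22, -0.19 and -0.41. Of all genes, 1.31%, 0.96% and 3.52% passed as lower in those settings.

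The part played by scaling can be read from the brighter genes, those with a control mean of at least 300, which were 4949 of all genes tested and 28 of the members. In the values as deposited these 4949 genes had a median log2 difference of -0.31 on the Ifnar-/- array and -0.68 after sLTβR-Fc, and the 28 members had -0.83 and -0.58. After quantile normalisation the medians were -0.0012 and -0.034 for all such genes and -0.52 and 0.068 for the members. In both versions the members stood below genes of like brightness on the Ifnar-/- array and slightly above them on the sLTβR-Fc array.

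**Figure D4:**
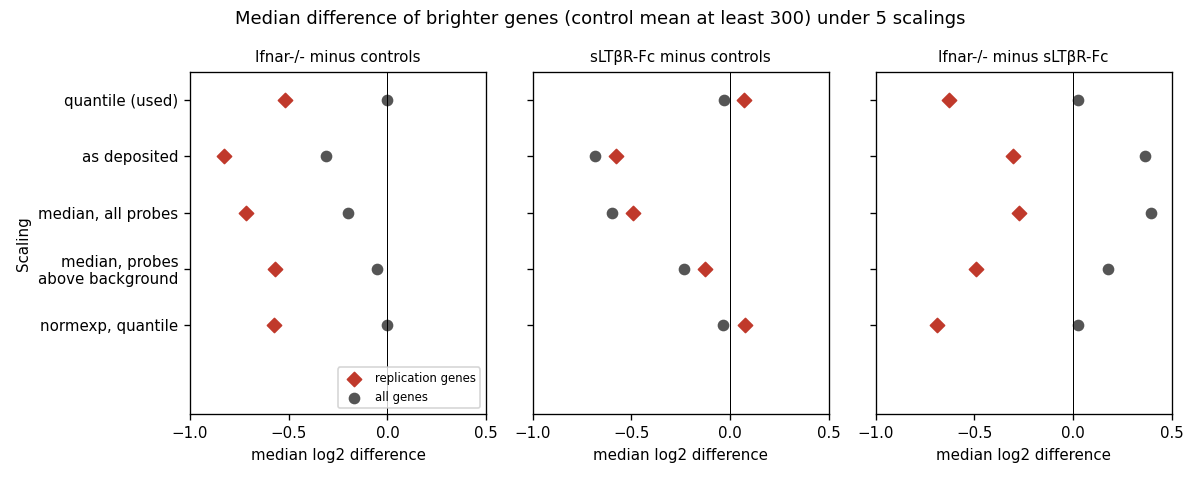
Median log2 difference of the 28 replication genes (diamond) and of all 4949 genes (circle) with a control mean of at least 300, under 5 scalings and for the 3 comparisons. On the Ifnar-/- array the diamonds lie left of the circles in every row, and on the sLTβR-Fc array both shift together, from 0.068 and -0.034 after quantile normalisation to -0.58 and -0.68 as deposited.

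Genes with more than 1 probe gave a check on the brightest probe. There were 39 further probes over 19 genes, of which 17, in 13 genes, were above background on all 4 arrays. On the Ifnar-/- array 11 of those 17 lay below both controls and 0 above both, where 35.2% and 42.8% of all genes tested did. Of the 17, 16 had the sign of the brightest probe, Rfc4 being the exception (0.049 against -0.40). Sizes differed more. The next probe of Rrm2 read 499.9 and 395 in the controls and 236 in Ifnar-/- cells (log2 -0.91), and the next of Rrm1 read 993 and 846 and then 494 (-0.89). Both Mcm6 probes, at -0.81 and -0.78, and the second Mcm7 probe, at -0.62, went further down than the brightest. A dim Rrm1 probe, between 123 and 152, gave -0.15, a dim Mcm10 probe, between 119 and 145, gave -0.28, and the further probes of Lig1 and Gins2 gave -0.052, -0.27 and -0.0090. With all probes of a gene averaged, 2 members instead of 5 lay 2-fold below each control and 11 instead of 14 passed limma. On the sLTβR-Fc array 9 of the 17 further probes lay above both controls and 6 below both, where 43.9% and 35.8% of all genes tested did.

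**Figure D5:**
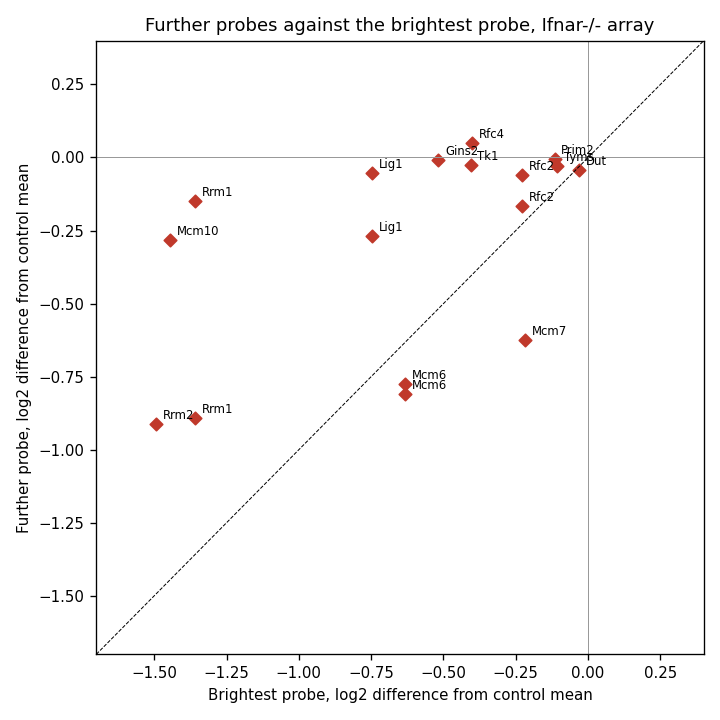
log2 difference on the Ifnar-/- array from the control mean of 17 further probes that were above background on all arrays, against that of the same gene's brightest probe; the dashed line marks equal values. All but Rfc4 (0.049) lie below 0, and 13 of the 17 lie above the dashed line, with Mcm6, Mcm7 and Dut under it.

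Other genes of the same machinery, drawn up by role, were read in the same way. Of 43 further fork and origin genes measured, 31 lay below both controls on the Ifnar-/- array and 5 above, where 35.2% and 42.8% of all genes tested did. The median of the 43 on that array was -0.36. There 13 passed limma as lower and 1 as higher, where 6.66% and 6.44% of all genes did. Nasp, a histone chaperone, read 876 and 738 in the controls, 243 in Ifnar-/- cells and 419 after sLTβR-Fc (log2 -1.73 and -0.94, limma adjusted p 3.8e-10 and 0.000362). Pole3, an accessory subunit of polymerase epsilon, Clspn, a fork checkpoint adaptor, and Top2a, which untangles the copied strands, lay at -1.46, -1.25 and -0.99 on the Ifnar-/- array. The gene that passed as higher was Pold4, the smallest subunit of polymerase delta, at 0.64. On the sLTβR-Fc array 3 of the 43 passed as lower and 1, Pold2 of the same polymerase, as higher (0.60), where 6.33% and 8.14% of all genes did.

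Of 34 further genes of nucleotide synthesis measured, 26 lay below both controls on the Ifnar-/- array, where 35.2% of all genes tested did. The median of the 34 on that array was -0.28. In limma 10 passed as lower and 0 as higher (2 at an unadjusted p under 0.05), where 6.66% and 6.44% of all genes did. Mthfd1 of the folate cycle read 1022 and 1077 in the controls and 460 in Ifnar-/- cells (-1.19), and Ctps, CTP synthase, Gart and Atic, enzymes of purine synthesis, lay at -0.99, -0.98 and -0.86. On the sLTβR-Fc array 5 passed as lower and 1 as higher, where 6.33% and 8.14% of all genes did. Those lower included Prps2 (-0.81), Mthfd1 (-0.76) and Rrm2b (-0.56). Impdh1, which commits purines to guanine nucleotides, passed there as higher, at 468 against 248 and 241 (0.94).

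Among 20 measured E2F and G1/S regulators, the median on the Ifnar-/- array was -0.20. In limma 0 passed as higher (0 at an unadjusted p under 0.05), where 6.44% of all genes did. As lower, 4 passed, where 6.66% did. They were Mybl2, an E2F target that drives later cell cycle genes (-0.99), E2f6, a repressor of the family (-0.75), Rbl1, the pocket protein p107 (-0.69), and Ccna2, cyclin A2 (-0.52). E2f3 and Ccne1 passed as lower on the sLTβR-Fc array, at -0.45 and -0.37, where 6.33% of all genes did. Of 17 mitosis genes measured, 15 lay below both controls on the Ifnar-/- array, where 35.2% of all genes tested did. The median of the 17 on that array was -0.52, with Plk1, a mitotic kinase, at -1.54. Of the 17, 10 passed as lower, where 6.66% of all genes did. On the sLTβR-Fc array the mitosis genes had a median of 0.0036. There limma passed 0 of them (1 as lower at an unadjusted p under 0.05), where 6.33% of all genes passed as lower and 8.14% as higher.

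Markers of cell types that hold dividing precursors moved on the same arrays. All 15 neutrophil markers, which cover precursors and maturing cells, lay below both controls on the Ifnar-/- array, where 35.2% of all genes tested did. Their summed level was 61933 and 42999.6 in the controls, 21333 in Ifnar-/- cells and 96245 after sLTβR-Fc. Mpo alone made up 25201 and 19311 of the control sums. On the sLTβR-Fc array 9 of the 15 lay above both controls and 2 below both, where 43.9% and 35.8% of all genes tested did. The 15 differences there ran from -0.27 for Camp to 2.51 for Elane, with Ltf at 0.0044. Erythroid precursor markers summed to 8336 and 5098 in the controls, 3036 in Ifnar-/- cells and 3617 after sLTβR-Fc. Of the 12 measured, 9 and 10 lay below both controls, where 35.2% and 35.8% of all genes tested did. They were thus low on both arrays, and Epb42 of that list was not above background on any. B cell markers summed to 26238 on the Ifnar-/- array against 17660.2 and 17138 in the controls, and to 12507 on the sLTβR-Fc array. On the Ifnar-/- array 9 of 9 lay above both controls, where 42.8% of all genes tested did. Pax5 was not above background on any array. T cell markers summed to 14424 and 19804 in the controls and to 10139 in Ifnar-/- cells and 9097 after sLTβR-Fc. Of the 11 measured, 8 and 10 lay below both controls, where 35.2% and 35.8% of all genes tested did. The part of all these markers in the replication gene values was not tested.

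The remaining marker lists were read in the same way. Eosinophil markers, with Siglecf, Ccr3 and Alox15 not above background on any array, summed to 5112 and 5789.6 in the controls, to 4345 in Ifnar-/- cells and to 27944 after sLTβR-Fc. Mast cell and basophil markers summed to 14504, 18484, 13684 and 41202 in the same order. Their median difference in Ifnar-/- cells was 0.21, with 4 of 8 above both controls, where 42.8% of all genes tested were. Gata2 passed as higher (0.82) and the granule protease genes Prss34 and Mcpt8 as lower (-1.49 and -1.64). Median differences of NK cell markers were 0.60 in Ifnar-/- cells and -0.44 after sLTβR-Fc, and those of dendritic cell markers 0.41 and 0.035. The NK cell sum went the other way in Ifnar-/- cells, at 15341 against 16205 and 17032 in the controls. It was 12949 after sLTβR-Fc. Germinal centre and plasma cell markers, among them activated dividing B cells, had medians of -0.016 and 0.062, and megakaryocyte markers of -0.19 and 0.057. The germinal centre and plasma cell sum was 7922 and 8825 in the controls, 11149 in Ifnar-/- cells and 11222 after sLTβR-Fc. In Ifnar-/- cells the single genes of that list ran from -0.73 to 1.19, and megakaryocyte markers from -1.36 to 0.048. Marginal zone macrophage markers had medians of -0.17 and -0.019, with Cd209d at 2.34 and Axl at -1.48 on the Ifnar-/- array. The 4 genes of the gate lay above both controls on both arrays, where 42.8% and 43.9% of all genes tested did.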

How the data were processed

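The authors deposited linear intensities of 45281 probes on each of 4 single-colour Illumina arrays. The submitters' processing notes name GenomeStudio 2011.1, with its background and scaling options not given in the sources used here. Deposited values keep their background (lowest value 82.2), and their upper quartiles ran from 146 to 188. Probes were named through the platform annotation, in which 34885 probes have 1 symbol, 18 several and 10378 none.

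Background on each array was the most frequent intensity plus the 95% point of the noise mirrored about it, with limits from 107 to 116. Values were quantile normalised and converted to log2 without a floor, and each gene was read from its brightest probe if that was above background on at least 1 array. Since background was left in, log2 differences of dim genes are understated. limma 3.58.1 (R 4.3.3) fitted 3 group means over 4 arrays with eBayes and a mean-variance trend, so that the controls gave the only residual degree of freedom, and p-values were adjusted by Benjamini-Hochberg over 14368 genes to 0.05. The fit gives the unreplicated arrays the controls' variance, and the number of arrays limits the precision. The fit was tested on simulated data in which the lone arrays varied as the controls did, so that test cannot show whether they do.

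Values are given for members that passed limma or lay at least 2-fold from each control. They are also given for the highest and lowest of each role on the Ifnar-/- array, apart from Mcm7, Cdc45 and Rfc2. The others are given by differences, with values for some. Further probes that differ by a log2 of over 0.5 are given, and others (of Mcm6, Mcm7, Rfc4, Rrm1 and Lig1) were chosen after their values were seen; of the other lists, up to 4 genes a comparison, ranked by difference. The members, gene lists and settings were chosen with earlier results of these data known; leaving out the floor followed from the spread problem seen in earlier work. Alternatives changed the scaling, background correction (normexp, offset 50), filter, floor, probe rule, variance model and control arrays. Of 258 entries in the other lists 239 were matched to a probe. Scanner files and detection p-values were not used here.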

Additional observations from a re-analysis of the deposited data

How the results depend on the processing

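With 2 controls and 1 array in each other group, the number of arrays limits every test, and dim probes near background understate differences. Other settings were 3 scalings, normexp, 2 filters, a floor, the mean of a gene's probes and no variance trend. On the Ifnar-/- array 14 members passed as lower and the median was -0.42. The count became 22 as deposited, 9 without the trend and 0 with the floor, and lay between 11 and 17 otherwise, while the share of all genes passing as lower went from 6.66% to 12.8%, 3.53%, 0% and 4.16% to 9.57%; 1 passed as higher with only genes above background on all arrays. The median became -0.71 as deposited, -0.60 and -0.45 with medians over all probes and over probes above background equalised, -0.47 with normexp, -0.41 without a filter and -0.36 with probes averaged; without either control it ran from -0.43 to -0.39. On the sLTβR-Fc array 2 passed as lower with a median of 0.055. The median turned to -0.55, -0.47 and -0.10 under the 3 scalings, in that order, with 15, 7 and 5 passing as lower. The count was 5 with only genes above background on all arrays, 1 without a filter, 0 with the floor and 0 without the trend; 1 passed as higher with only genes above background on all arrays and 1 with probes averaged. The median was 0.069 with normexp, 0.048 without a filter, 0.042 with probes averaged, and 0.040 to 0.069 without either control. Singly, Mcm7 (-0.664) and Pole (-0.635) turned to lower and passed there as deposited. Between the lone arrays 14 passed as lower on the Ifnar-/- array with a median of -0.53. The count became 1, 0 and 7 under the 3 scalings, 0 with the floor, 8 with probes averaged and 8 without the trend. The median became -0.22, -0.19 and -0.41 under the scalings, -0.57 with normexp and -0.34 with probes averaged. The floor left a prior of 0.957 degrees of freedom; otherwise the cause was not tested. The counts of members below both controls and 2-fold below each were added to the settings after the data had been seen. No paired analysis was possible because the groups share only the replicate number 1.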
